A study of Mus musculus with 8 samples.

Results

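Oligodendrocyte precursors and the cells they give rise to were followed here through 7 genes, Pdgfra, Cspg4, Gpr17, Olig1, Olig2, Sox10 and Nkx2-2, in the medial prefrontal cortex (mPFC) of adult male C3H/HeN mice. The 7 genes were chosen by symbol as markers of the lineage, out of 34741 gene symbols and unnamed transcripts on the array. They were not picked by their measured values, but earlier results of these data were known when they were chosen. They were read by 8 of the 55681 probes, all 8 of which passed the filter on dim signal, as did 34095 probes in all. RNA of 4 mice exposed to maternal separation (MS) was set against RNA of 4 control mice, each mouse on an Agilent mouse array of its own, with 1 dye. MS pups were taken from the dam every day between postnatal day (PND) 2 and PND14 while the dam met changing, unpredictable stressors. No separation was imposed on the control litters. Weaning was on PND21 in both groups, and the brains were taken in adulthood, after operant tests with palatable food and a fast. The labels give no allele or drug for either group. The mice are named by the number on their labels, MS 5.3, 7.1, 7.2 and 7.6 and control 6.2, 8.2, 8.4 and 8.5. The sources do not say what the digit before the point stands for. It could be a litter, in which case littermates were counted as separate animals and the p values do not take this into account.

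Oligodendrocyte precursors are a dividing glial population that remains in the adult cortex and makes myelinating oligodendrocytes. Pdgfra encodes the receptor through which platelet-derived growth factor keeps precursors dividing, and Cspg4 encodes the NG2 proteoglycan of their surface. Gpr17, an orphan receptor, is switched on in precursors that leave the cycle and is lost before myelination. Olig1 and Olig2 are basic helix-loop-helix transcription factors, Sox10 is an HMG-box factor present at all stages of the lineage and needed for myelin gene expression, and Nkx2-2 is a homeodomain factor linked to the onset of differentiation. Pdgfra is also made by fibroblasts of the meninges and vessels, and Cspg4 by pericytes, so markers of these cells were read as well.

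Each level rests on probes of 60 bases, and 30 bases are shown of each member probe other than that of Gpr17, 5′ to 3′ in the direction of the transcript. Capitals mark AATAAA or ATTAAA, the hexamers of polyadenylation signals, searched on the strand of the transcript only. Either hexamer lay within 2 of the 8 member probes and within 13.7% of all 55681 probes. Where a probe holds none, its first 30 bases are given. Coordinates are those of the file annotation on build mm9. Whether the bases lie in coding or untranslated exon was not analysed here.
Sox10, chr15:78985518-78985577, minus strand, bases 31 to 60 of the probe: tccagcgataccttAATAAAgtacgtagct
Olig1, chr16:91271799-91271858, plus strand, bases 28 to 57: attaacgttctcATTAAAgtaagcggagtt
Olig2, chr16:91228470-91228529, plus strand, bases 1 to 30: aagaacaacatcaaaaagttgctgtgaata
Pdgfra, chr5:75593888-75593947, plus strand, bases 1 to 30: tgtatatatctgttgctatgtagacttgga
Cspg4, chr9:56746627-56746686, plus strand, bases 1 to 30: ctgacccagaactattgcagttttgccgga
Nkx2-2, first probe, chr2:147008949-147009008, minus strand, bases 1 to 30: tttcaactatgaaaaaggaaaatatgtgta
Nkx2-2, second probe, chr2:147003307-147003366, minus strand, bases 1 to 30: cacaattgaagcatatatttccacctcttc
Both Nkx2-2 probes are shown because they start 5642 bases apart, are annotated to different RefSeq transcripts of the gene and gave different patterns across the mice. The second was the dimmer one, and the cause of the difference in pattern was not tested.

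The arrays were alike in signal. Between 61.5% and 68.9% of the probes were well above background on each array, no probe was saturated, and the 75th percentile of the signal ran from 586.5 to 887.8. The number of arrays limits the precision. All 10 markers of cortical glutamatergic neurons were well above background on all 8 arrays. Control 8.4 stood apart. Its mean over these 10 markers was 0.54 below the mean of the 8 mice on the log2 scale, against -0.026 to 0.21 in the 7 other mice. Over 11 measured markers of striatal projection neurons it was 1.24 above that mean, against -0.29 to -0.042 in the others. Over 11 measured markers of the olfactory bulb it was 2.42 above, and MS 7.6 (1.25) and control 8.5 (0.72) were also high. Values that moved by over 1.5 times without control 8.4 are given both ways below for the genes named and the lists counted. The part of these other tissue markers in them was not tested.

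A level is the log2 signal of a probe minus that array's 75th percentile, on which 0 is the percentile itself, and is compared only with levels of the same probe. Fold changes are log2 differences, MS minus control, tested with limma over all 34095 probes, two-sided, and adjusted by Benjamini-Hochberg, with 95% confidence intervals. In whole tissue, fewer cells of a type and less RNA per cell cannot be told apart.

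Of the receptors and surface proteins of precursors, none passed the test between MS and control mice. Pdgfra was at 0.48, 0.69, 0.71 and 0.53 in MS mice 5.3, 7.1, 7.2 and 7.6, against 0.79, 0.63, 0.64 and 0.45 in control mice 6.2, 8.2, 8.4 and 8.5. The lowest and the highest value both came from control mice, and all 4 MS values lay between them. The means were 0.60 ± 0.11 in MS and 0.63 ± 0.14 in control mPFC (SD, n = 4 each), a log2 fold change of -0.024 (SE 0.097, interval -0.25 to 0.20). The adjusted p was 0.9996 and the unadjusted p 0.812 (limma). The Pdgfra probe was spotted 10 times on each array, which shows the error of a single spot. The single spots of an array differed by a median SD of 0.093. The value of a mouse is the mean of 8 to 10 such spots, so its reading error is smaller than that. Between the values of the 8 mice the SD was 0.12.

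Cspg4 was at 0.11, 0.24, 0.054 and 0.032 in MS mice 5.3, 7.1, 7.2 and 7.6, against 0.15, -0.12, -0.17 and 0.32 in control mice 6.2, 8.2, 8.4 and 8.5. The 4 MS mice were close together, and the control mice lay on both sides of them. The means were 0.11 ± 0.091 in MS and 0.043 ± 0.23 in control mice (SD, n = 4 each), with a log2 fold change of 0.066 (SE 0.12, interval -0.21 to 0.34, unadjusted p 0.597, limma). Without control 8.4, the mouse lowest in Cspg4, the difference was -0.005, the other way round.

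Gpr17 had the smallest p of the 7 genes and its level was the one that differed most. Its probe lies on chromosome 18, from 32102750 to 32102809 on the minus strand. The levels were 2.89, 2.90, 2.77 and 2.93 in MS mice 5.3, 7.1, 7.2 and 7.6, against 2.61, 2.93, 2.71 and 2.65 in control mice 6.2, 8.2, 8.4 and 8.5. Each MS mouse was above 3 of the 4 control mice, while control 8.2 was as high as the highest MS mouse, so that the groups overlapped. The means were 2.87 ± 0.073 and 2.72 ± 0.14 in MS and control mPFC (SD, n = 4 each), a ratio of 1.11 and a log2 fold change of 0.15 (SE 0.091, interval -0.057 to 0.36). The unadjusted p was 0.134 and the adjusted p 0.9996 (limma). Without control 8.2 the difference was 0.22, with an unadjusted p of 0.03 and an adjusted p of 0.892 (limma). No other control lay within the range of the MS mice, so leaving out control 8.2 could only part the groups. That unadjusted p was the smallest over all alternatives run. The share of all genes below 0.05 in this leave-out is not given here. Over the leave-outs of each mouse, the difference lay between 0.11 and 0.22.

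The 4 transcription factors all had lower means in MS than in control mice, and none passed the test. Olig1 was at 2.56, 2.58, 2.63 and 2.73 in MS mice 5.3, 7.1, 7.2 and 7.6, against 2.73, 2.62, 2.87 and 2.66 in control mice 6.2, 8.2, 8.4 and 8.5. The means were 2.62 ± 0.075 in MS and 2.72 ± 0.11 in control mice (SD, n = 4 each), a log2 fold change of -0.094 (SE 0.084, interval -0.29 to 0.096, unadjusted p 0.289, limma). The highest value was that of control 8.4, without which the log2 fold change was -0.044, and the groups overlapped. Olig2, whose gene is a neighbour of Olig1 on chromosome 16 and which acts earlier in the specification of the lineage, was at -0.93, -0.97, -1.15 and -0.96 in the same MS mice. The control values were -0.95, -0.85, -0.75 and -1.03. MS 7.2 was the lowest of the 8 and control 8.4 again the highest. The means were -1.002 ± 0.10 in MS and -0.89 ± 0.12 in control mice (SD, n = 4 each), a log2 fold change of -0.11 (SE 0.091, interval -0.32 to 0.097, unadjusted p 0.26, limma), and -0.060 without control 8.4.

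Sox10 was at 0.62, 0.44, 0.55 and 0.72 in MS mice 5.3, 7.1, 7.2 and 7.6, against 0.57, 0.62, 1.02 and 0.59 in control mice 6.2, 8.2, 8.4 and 8.5. Apart from control 8.4, the control mice were within a narrow band, inside the range of the MS mice. The means were 0.58 ± 0.12 in MS and 0.70 ± 0.22 in control mPFC (SD, n = 4 each), a log2 fold change of -0.12 (SE 0.12, interval -0.39 to 0.16, unadjusted p 0.358, limma). The 3 other controls averaged 0.59 ± 0.025 (SD, n = 3), and without control 8.4 the log2 fold change was -0.009 (SE 0.085, interval -0.21 to 0.19). Nkx2-2 was at -2.34, -2.37, -2.19 and -2.42 at its first probe in the same MS mice, against -2.18, -2.41, -2.32 and -2.06 in the control mice. The means were -2.33 ± 0.099 in MS and -2.24 ± 0.16 in control mice (SD, n = 4 each), a log2 fold change of -0.087 (SE 0.099, interval -0.31 to 0.14, unadjusted p 0.4, limma). At the second probe, the dimmest of the member probes, the means were -4.053 ± 0.04 in MS and -4.049 ± 0.145 in control mice (SD, n = 4 each). The log2 fold change there was -0.004 (SE 0.088, interval -0.21 to 0.20, unadjusted p 0.967, limma). The groups overlapped at both probes.

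**Figure D1:**
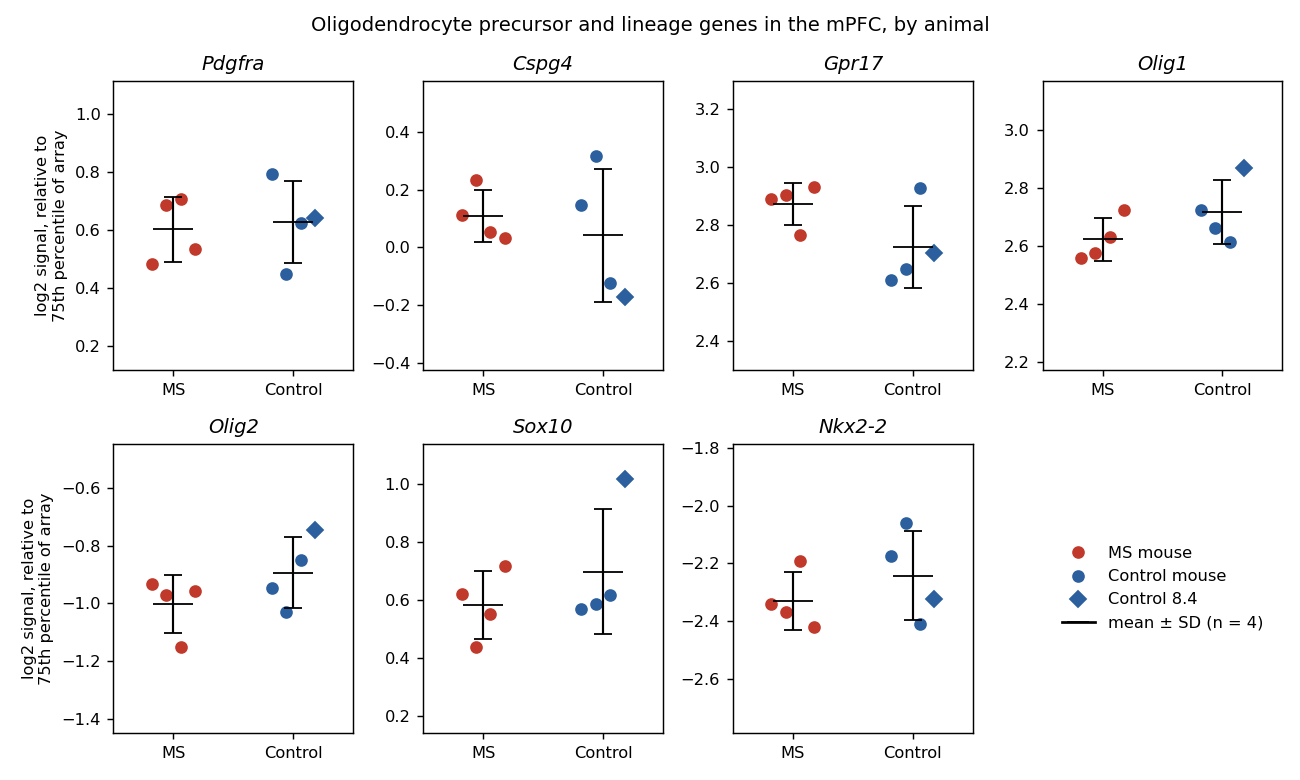
Level of each of the 7 genes by mouse (y axis, log2 signal relative to the 75th percentile of the array; each panel spans 1 log2 unit), MS mice left and control mice right, with mean and SD (n = 4 each). The groups overlap in each panel, and control 8.4 (diamond) is the highest mouse for Olig1, Olig2 and Sox10 and the lowest for Cspg4.

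In all, 0 of the 7 genes passed an adjusted p of 0.05 in limma, and 0 had an unadjusted p below 0.05. Over the whole array, 0 of 34095 probes (0%) passed the adjusted threshold, and 1.95% of the 23432 genes tested had an unadjusted p below 0.05. None of the 7 genes had all 4 MS values above or all 4 below the control values, which 0.824% and 0.546% of the genes tested did. The intervals bound the differences that remain possible. Over the 8 mice their outer ends were -0.39 (Sox10) and 0.36 (Gpr17), ratios of MS over control of 0.764 and 1.28. Without control 8.4 the upper end for Gpr17 was 0.375, so these ends are not firm bounds. The 7 genes varied little between mice. Their SD over the 8 animals was 0.10 to 0.17, with a median of 0.13, beside a median of 0.16 over all genes tested, and the median SE of the difference was 0.097 beside 0.11.

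The mean was higher in MS for 2 genes (Cspg4 and Gpr17) and lower for 5, with a median log2 fold change of -0.087. Among all genes tested 54.1% were higher and the median was 0.011. Without control 8.4, 6 of the 7 genes were lower, Gpr17 being the exception, and the median was -0.019. Pdgfra (-0.019), Cspg4 (-0.005) and Sox10 (-0.009) were then near 0. Among all genes tested, 11988 of 23432 were lower without control 8.4, with a median of -0.002. The list counts without control 8.4 given below have this same background. The 8 arrays lay on 1 slide in 2 rows, each with 2 mice of each group. The difference between the groups had the same sign in both rows for Pdgfra (-0.035 and -0.013), Gpr17 (0.27 and 0.033), Olig1 (-0.13 and -0.063) and Sox10 (-0.048 and -0.18). It changed sign between rows for Cspg4 (-0.057 and 0.19), Olig2 (0.037 and -0.26) and Nkx2-2 (-0.24 and 0.062).

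**Figure D2:**
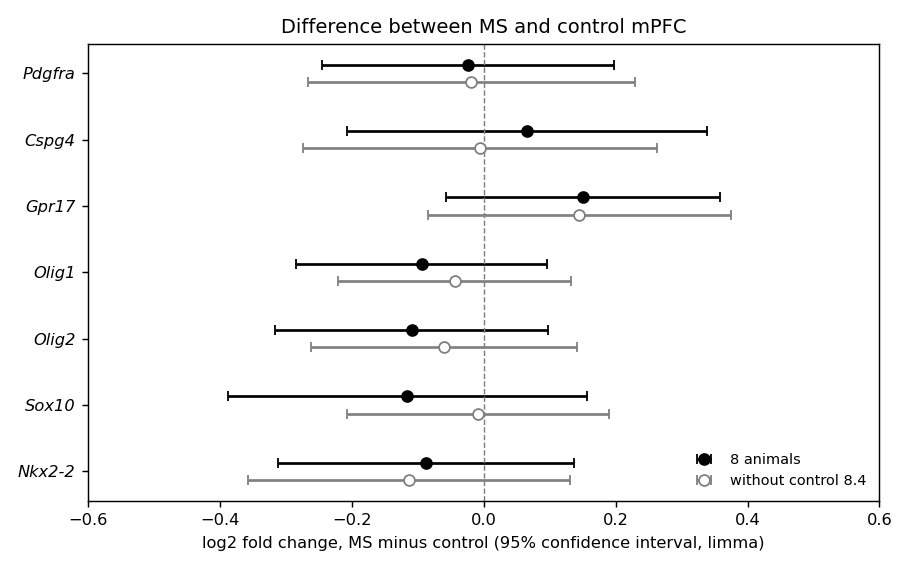
Log2 fold change of each gene, MS minus control (x axis), with its 95% confidence interval from limma, over 8 mice (filled) and without control 8.4 (open). Each interval includes 0, and Sox10 moves most when control 8.4 is left out, to -0.009, against -0.12 over all mice.

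Control 8.4 departed from the common level in opposite directions for different genes. Relative to the mean of the 8 mice, control 8.4 had Sox10 0.38 higher, Olig2 0.20 higher and Olig1 0.20 higher on the log2 scale, while Cspg4 was 0.25 lower. Pdgfra (0.026) and Nkx2-2 (-0.036) were close to the mean there, and Gpr17 was at -0.093. The 18 measured myelin genes of mature oligodendrocytes averaged 0.43 above the mean of the 8 mice in the same animal, against -0.18 to 0.046 in the 7 others. The 17 other precursor markers averaged -0.003 in control 8.4, inside the range of the others (-0.067 to 0.074). In control 8.5, Cspg4 (0.24) and Nkx2-2 (0.23) were high, and in MS 7.2 Olig2 was low (-0.20). In control 8.4, Sox10, Olig1 and Olig2 were high together with the myelin genes, and Pdgfra, Cspg4 and the mean of the further precursor markers were not. The striatal and olfactory bulb markers given above were high in this mouse too, and their part in these levels was not tested.

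**Figure D3:**
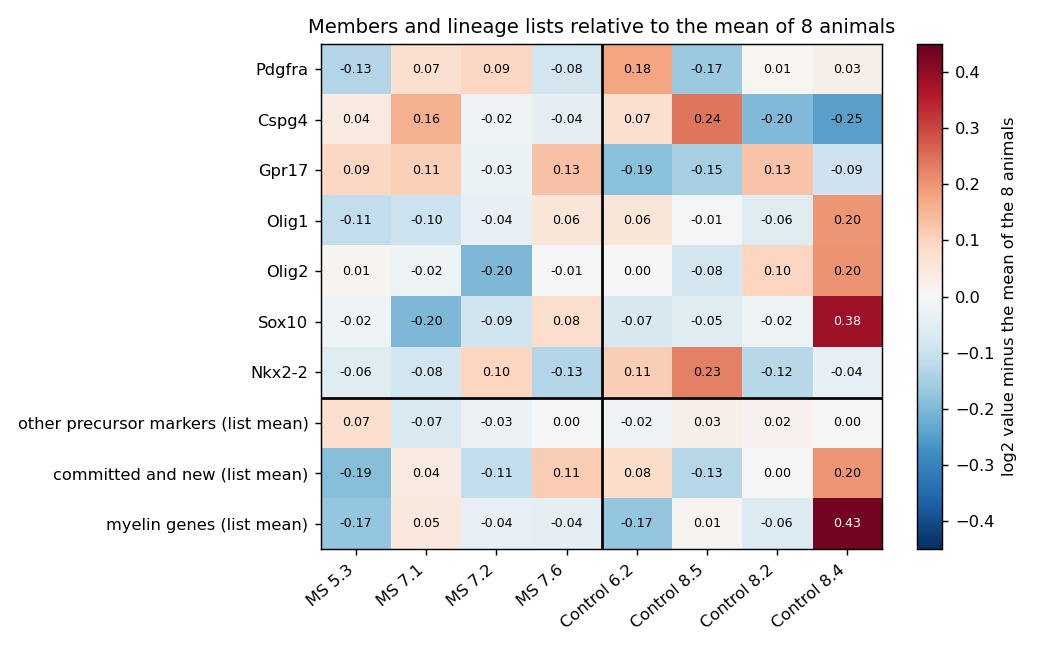
Log2 value of each of the 7 genes, and of the mean of 3 lineage lists, minus the mean of the 8 animals (colour and printed value), MS mice left of the line and control mice right. The darkest cells are Sox10 and the myelin genes in control 8.4, at 0.38 and 0.43.

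The 7 genes did not move as a block from mouse to mouse. Over the 21 pairs of genes, Pearson's r across the 8 mice was above 0 for 8 and below 0 for 13, with a median of -0.17. The closest inverse relation was that of Gpr17 and the first Nkx2-2 probe, with r = -0.854 (exact permutation p = 0.00804) and Spearman's rho = -0.952 (exact permutation p = 0.00114). Adjusted over the 21 pairs, these were 0.169 and 0.024. The rho was weaker under the other scalings of the same probe, for which no p was computed. It was -0.81 with quantile normalisation, -0.905 with normexp background correction and -0.881 in the authors' log2 table. Mice with high Gpr17 had low Nkx2-2 at that probe, in both groups. Leaving out control 6.2 and control 8.5, the mice farthest from the median of Gpr17, r was -0.72, and without control 8.4 it was -0.93. With the group means taken out it was -0.857, and it was -0.906 and -0.728 within the slide rows (4 mice each). At the second Nkx2-2 probe it was weaker, with r = -0.477 and rho = -0.214 over the 8 mice and r of -0.709 and -0.608 within the slide rows. At this dim probe r changed with the source of the values. It was -0.119 with quantile normalisation, 0.067 with normexp background correction and 0.575 in the authors' log2 table, where the first probe gave -0.854.

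Olig1 and Sox10 gave the largest positive r, 0.839 (exact permutation p = 0.0172, adjusted over the 21 pairs 0.18), with rho = 0.476 (exact permutation p = 0.243, adjusted 0.729). Leaving out MS 5.3 and control 8.4, the mice farthest from the median of Olig1, r was 0.704. Without control 8.4 alone it was 0.479. Olig2 and Sox10 had r = 0.699 (exact permutation p = 0.067, adjusted 0.352) and 0.261 without control 8.4. The relations among these 3 factors rested to a large part on that mouse. Pdgfra and Cspg4, both markers of the precursor surface, had r = -0.204 (exact permutation p = 0.619, adjusted 0.937). All values of a mouse share its array and its scaling.

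**Figure D4:**
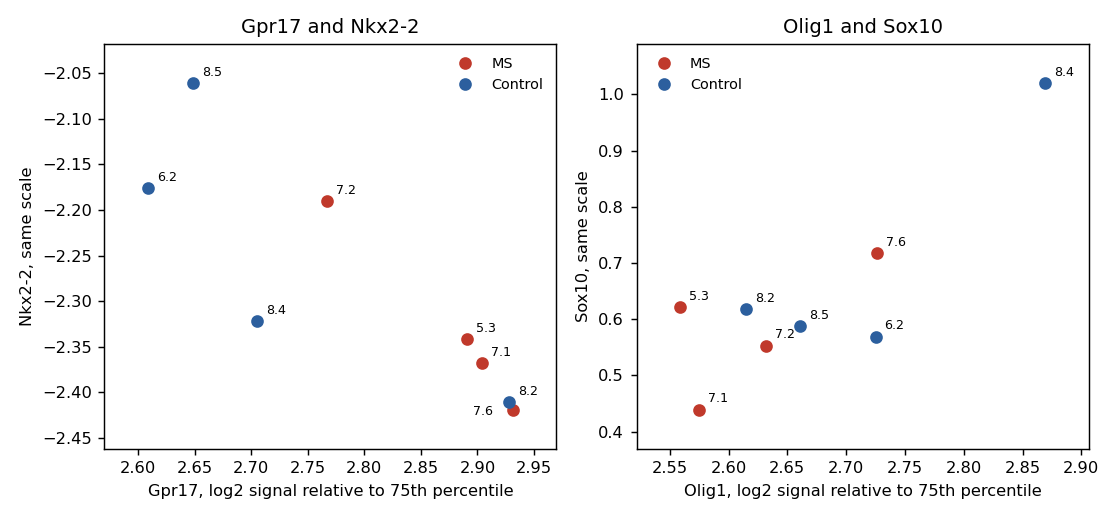
Levels of Nkx2-2 (first probe) against Gpr17 (left) and of Sox10 against Olig1 (right) by mouse, both axes as log2 signal relative to the 75th percentile, MS mice red and control mice blue, with the animal number at each point. Nkx2-2 is lower where Gpr17 is higher (rho -0.952 as drawn, -0.81 with quantile normalisation). Control 8.4 lies apart from the 7 other mice for Olig1 and Sox10.

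The further markers of precursors likewise gave no gene past the threshold. Of 17 genes, all tested, 7 were higher and 10 lower in MS mPFC, with 0 past an adjusted p of 0.05 and 0 with an unadjusted p below 0.05 (limma). The median log2 fold change was -0.010 (-0.031 without control 8.4, with 11 lower), beside 0.011 over all genes. The lowest were Vcan, the proteoglycan versican (-0.27, SE 0.19), and Lhfpl3 (-0.26, SE 0.23). For Vcan the spot of control 6.2 was marked as an outlier and dropped, so that 3 control values entered. Both differences were near 0 without control 8.4, at -0.010 and 0.005. The highest were Xylt1, a xylosyltransferase that starts glycosaminoglycan chains on proteoglycans (0.46, SE 0.37), and Sox5 (0.17, SE 0.19), which holds precursors undifferentiated. Without control 8.4 Sox5 was at -0.005. Xylt1 was at -1.64 in MS 7.6, against -3.44 to -3.30 in the other MS mice and -3.58 to -3.21 in control mice, so that 1 MS mouse stood apart.

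Of 13 genes of committed precursors and newly formed oligodendrocytes, 11 were tested, and Enpp6 and 9630013A20Rik were too dim. The means were higher in MS for 3 and lower for 8, with a median of -0.063 and 0 past the threshold. Without control 8.4, 5 were lower and the median was 0.013. The lowest were Bmp4 (-0.26, SE 0.51), which encodes a bone morphogenetic protein, and Fyn (-0.26, SE 0.15), a kinase that acts in early myelination, and both were at -0.10 without control 8.4. Bmp4 varied widely between mice, and was lowest in MS 5.3 (-1.149) and control 8.5 (-0.875). These mice also had the lowest means of the fibroblast and meningeal markers given below, whose part in Bmp4 was not tested. The highest were Kif19a (0.084, SE 0.096, and 0.055 without control 8.4) and Tcf7l2 (0.033, SE 0.12), a Wnt effector active at the onset of differentiation.

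Of 18 other transcription regulators of the lineage, 17 were tested and Myrf was too dim. The means were lower in MS for 13 and higher for 4, with a median of -0.053 (-0.023 without control 8.4, with 10 lower). None passed the adjusted threshold, and 1 had an unadjusted p below 0.05. It was Nfia, a nuclear factor of glial specification, named after its value was seen. Nfia was at -1.42, -1.56, -1.53 and -1.70 in MS mice 5.3, 7.1, 7.2 and 7.6, against -1.27, -1.53, -1.12 and -1.17 in control mice 6.2, 8.2, 8.4 and 8.5. Its log2 fold change was -0.28 (SE 0.11, unadjusted p 0.0318, adjusted p 0.9996, limma), and control 8.2 lay among the MS mice. The lowest values were those of Nkx6-1 (-0.31, SE 0.15), a homeodomain factor of the ventral neural tube, and Zfp536 (-0.29, SE 0.20, and -0.073 without control 8.4). The highest were those of Hes1, a Notch target that represses proneural genes (0.30, SE 0.14), and Sox8, a relative of Sox10 from the same SoxE group (0.17, SE 0.19).

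Growth factors, ligands and receptors that act on the lineage gave no gene past the threshold either. Of 19 genes 18 were tested, Erbb3 being too dim. Of these 9 were higher and 9 lower in MS, with a median of -0.001. Without control 8.4, 12 were lower and the median was -0.022. Pdgfa, the ligand of the Pdgfra receptor, was at 4.62, 4.33, 4.37 and 4.30 in MS mice 5.3, 7.1, 7.2 and 7.6, against 4.41, 4.36, 4.04 and 4.39 in control mice 6.2, 8.2, 8.4 and 8.5. The log2 fold change was 0.11 (SE 0.11, unadjusted p 0.376, limma), and 0.019 without control 8.4, the lowest mouse. The lowest of the list were Smo (-0.24, SE 0.16), the transducer of hedgehog signals, and Jag1 (-0.23, SE 0.17, and -0.043 without control 8.4), a Notch ligand. The highest were Lif (0.15, SE 0.23), a cytokine that favours oligodendrocyte survival, and Ptch1, the hedgehog receptor, at 0.12 (SE 0.17). Without control 8.4 these were at 0.031 and 0.018.

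For myelin genes of mature oligodendrocytes, the downstream end of the lineage, the count of directions depended on control 8.4. Of 19 genes 18 were tested, and Nipal4 was too dim. Of these 16 had lower means in MS and 2 higher, with a median of -0.10 and 0 past the threshold. Without control 8.4 only 6 were lower and the median was 0.031. Mbp, the myelin basic protein gene, had the highest log2 fold change of the list (0.18, SE 0.19), followed by Ugt8a (0.001), an enzyme of galactolipid synthesis. Without control 8.4 Mbp was at 0.025 and Ugt8a at 0.084. The lowest was Ppp1r14a (-0.25, SE 0.18, and -0.070 without control 8.4). Mbp was at 2.998 in control 8.4, the lowest of the 8 mice, although the mean of the myelin genes was highest there.

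**Figure D5:**
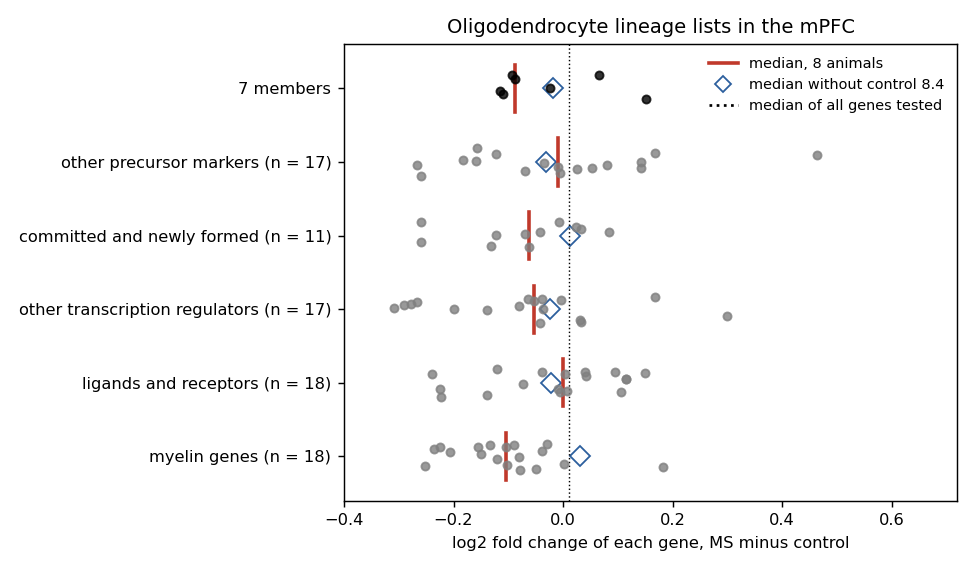
Log2 fold change of each gene tested, MS minus control (x axis), for the 7 genes and 5 further lists of the lineage (rows), with list medians over 8 mice (red bars) and without control 8.4 (open diamonds). The median of the myelin genes is -0.10 with all mice and 0.031 without control 8.4.

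Cells other than precursors that make Pdgfra or Cspg4 were read through their own markers. Of 10 pericyte markers, 3 were higher and 7 lower in MS, with a median of -0.035 and 0 past the threshold. Pdgfrb, the receptor by which pericytes are recruited to vessels, had a log2 fold change of -0.15 (SE 0.087) and was the next to lowest, after Anpep (-0.22, SE 0.36). Rgs5 (0.12, SE 0.085) and Higd1b (0.053, SE 0.10) were the highest. Without control 8.4, Anpep was at -0.046 and Higd1b at -0.017. The mean of the 10 markers, relative to the mean of the 8 mice, was -0.15 to 0.12 in MS and -0.062 to 0.11 in control mice. All 10 fibroblast and meningeal markers had lower means in MS, with a median of -0.26 (8 of 10 lower and -0.17 without control 8.4) and 0 past the threshold. Their mean ran from -1.12 to 0.65 in MS mice and from -0.70 to 0.48 in control mice, a far wider spread than that of Pdgfra. The lowest of them were Col3a1 (-0.44, SE 0.46) and Slc6a13 (-0.42, SE 0.50), and the highest Col1a2 (-0.15, SE 0.33) and Lum (-0.21, SE 0.36). Without control 8.4, Slc6a13 was at -0.25 and Lum at -0.12. MS 5.3 and control 8.5, with the lowest fibroblast means, at -1.12 and -0.70, were also the mice lowest in Pdgfra. MS 7.2, with the next lowest (-0.59), was however the second highest in Pdgfra, and MS 7.6, with the highest (0.65), was among the lower mice. The part of these cells in the level of Pdgfra was not tested.

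The mean of the 7 genes, each centred on its mean over the 8 mice, was -0.027 to 0 in MS mice and -0.023 to 0.062 in control mice. Among 22624 other genes well above background on all arrays, the 5 whose pattern was most like it were Usp18 (Pearson's r = 0.974 over 8 mice), 3110099E03Rik (0.972), LOC100503888 (0.969), Lrrtm4 (0.964) and 1500026H17Rik (0.962). Without control 8.4 these were 0.902 to 0.915. As the highest of 22624 values over only 8 mice, they were bound to be high, and no test was made of them. The pattern they were matched to is also the mean of genes that did not move together. Usp18, which encodes a protease that removes the ubiquitin-like protein ISG15, was at -3.25, -2.47, -3.20 and -2.47 in MS mice 5.3, 7.1, 7.2 and 7.6, against -1.75, -3.40, -0.46 and -2.91 in control mice 6.2, 8.2, 8.4 and 8.5. Control 8.4 and control 6.2 were the highest for Usp18, as they were for the mean of the 7 genes, by which Usp18 was picked.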

How the data were processed

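Groups and animal numbers came from the labels of the samples. Signal intensity per spot was deposited as scanner output, made by the authors with Agilent Feature Extraction (version 10.10.1.1), background-subtracted and not normalised between arrays. By the headers, the array design was 028005 with coordinates on mm9, whereas another design is named in the methods. A table of normalised log2 values was deposited as well. Its columns matched the scanner values of their own arrays (r of 0.9999 or more) with medians of 8.532 or 8.533, and it served as an alternative. The methods describe Cy3 labelling of total RNA.

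Of 62976 spots per array, 3671 control spots and the outlier spots (0.255% to 0.304%) were left out. Spots of a probe were averaged, and log2 processed signal minus the array's 75th percentile was used. A probe was tested when most of its spots were well above background on all 4 arrays of a group. Symbols came from the RefSeq table of GRCm38.p6, with 27235 probes matched by accession, 4146 by name and 24300 left as the files name them. A gene was read at its brightest tested probe. The test was limma 3.58.1 (lmFit, eBayes) in R 4.3.3, checked on simulated data, with a false discovery rate of 0.05. Correlations were tested by exact permutation in Python 3.11.15, and figures were drawn with matplotlib 3.10.9.

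The 7 genes and the lists were chosen with earlier results of these data known. All 7 were described at every probe. Of each further lineage, pericyte and fibroblast list, the 2 highest and 2 lowest genes by log2 fold change were named, plus Mbp, Pdgfa and Pdgfrb. Some myelin genes that this rule would name are not reported here. The lists of astrocyte, microglia, neuron, striatal and bulb markers are given as counts or means: 4 of 10 astrocyte and 7 of 10 microglia markers were higher in MS, as were 10 of 10 cortical neuron, 0 of 11 striatal and 0 of 11 bulb markers, with 0 past the threshold. Without control 8.4, 3 of the 10, 6 of the 11 and 3 of the 11 were lower in MS, with medians of 0.060, -0.067 and 0.010. For astrocyte and microglia markers 5 of 10 were then lower in each list. Alternatives changed the scaling, background correction, source table, filter, blocks, probe and animals.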

Additional observations from a re-analysis of the deposited data

Results flagged for a closer look

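In 16 groups of 4 values (8 probes, MS and control), the gap of the extreme mouse to its nearest neighbour was set against the range of the group and compared with Dixon's critical value for 4 values. Chance gives about 1 in 20 such groups, and 2 of the 16 were past it. Olig2 in MS 7.2 was at -1.15, with a ratio of 0.833. Sox10 in control 8.4 was at 1.02, with a ratio of 0.892, in the mouse with the highest myelin, striatal and olfactory bulb markers.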

How the results depend on the processing

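The counts of probes and of the 7 genes past the threshold were 0 under each of the 17 and 18 alternatives run. Over these the smallest adjusted p of a member was 0.494, for Gpr17 with the number before the point as a random block (limma). The smallest unadjusted p was 0.03, for Gpr17 without control 8.2 (limma). Each number before the point occurs in 1 group only, and the estimated correlation within the blocks was negative (-0.222). With these blocks the unadjusted p of Gpr17 was 0.0817, against 0.134 in the main fit (limma). This setting was therefore not a stricter test for possible litters. Gpr17, Olig1, Olig2, Sox10 and Nkx2-2 kept their direction under all 18, but Sox10 came as near 0 as -0.009 and Nkx2-2 as -0.007. The alternatives drew on the same 8 arrays and are not independent of each other. Cspg4 was -0.003 in the authors' log2 table, and -0.005 to 0.16 when each mouse was left out in turn, below 0 without control 8.4. Pdgfra was 0.012 with the random block and -0.083 to 0.032 when each mouse was left out. The median log2 fold change of the 7 genes was -0.046 with the mean over the probes of a gene and -0.095 to -0.019 when each mouse was left out. It was -0.056 without the 3 mice with high olfactory bulb markers (control 8.4, MS 7.6 and control 8.5), a setting chosen after seeing the data. The cause of these shifts was not tested. The median of all probes was 0.004 to 0.035 under the 5 scalings. No paired analysis was possible because no animal number is shared between the groups. All member probes exceeded background on each array.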
